A study of Mus musculus with 13 samples.

Results

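Replication-dependent histone genes encode the histones H1, H2A, H2B, H3 and H4 that package newly made DNA. They are described here in the RNA of mouse Th17 cells cultured for 72 hours. The genes were taken from the deposited table of gene counts by symbol: older names of the Hist type, or the current names H1f, H2ac, H2bc, H3c and H4c. Pseudogenes were left out, and at least 1 count in any library was required. This gave 57 genes of the 56941 rows, 5 of them for H1, 13 for H2A, 16 for H2B, 10 for H3 and 13 for H4. By RefSeq, 50 of the 57 lie on chromosome 13, 4 on chromosome 3, 2 on chromosome 11 and 1 on chromosome 6. Another 10 histone genes that match by symbol had no count in any library, and 3 rows were pseudogenes.

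The cells were naive CD4+ T cells from spleen, activated and grown under Th17-polarizing conditions. The libraries labelled KO came from Chaf1bfl/fl;Il17fCre+ mice, in which Cre recombinase is tied to Il17f, a gene of the Th17 state itself. The libraries labelled WT came from Chaf1bWT mice, and whether those carried the Cre is not given in the sources used here. Each genotype had 3 libraries, called biological replicates in the labels, with no animal named and no age given, so a p-value here speaks of the spread among the libraries only. The study asked what Chaf1b does in Th17 cells.

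Most core and linker histone mRNA is made in S phase, when a cell copies its DNA. The transcription factor NPAT switches the clustered genes on after cyclin E and its kinase phosphorylate it. The transcripts have no introns and end in a stem-loop bound by SLBP instead of a poly(A) tail. CHAF1B, the protein of the targeted gene, belongs to the CAF-1 complex, a histone chaperone that places new H3 and H4 on replicated DNA.

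None of the 23 tested histone genes passed edgeR's test, and the class sums did not lie alike. Summed over all members, H3 and H4 lay higher in every library labelled KO than in any labelled WT, and the H2A and H2B sums overlapped. The H1 sum lay lower in every library labelled KO, but the groups overlapped without H1f2. Among all single genes tested, the groups did not overlap in 26.8%. Of the 23, 5 had an unadjusted p under 0.05 in edgeR's test, against 21.1% of all genes: H4c9, H3c10, H3c3, H2ac10 and H1f2. Their promoters are shown because histone classes carry different promoter elements. Each line runs 5′ to 3′ over the 250 bases before and 50 bases after the RefSeq start (GRCm38.p6), with searched motifs in capitals.
H1f2 promoter, chr13:23738557-23738856, plus strand: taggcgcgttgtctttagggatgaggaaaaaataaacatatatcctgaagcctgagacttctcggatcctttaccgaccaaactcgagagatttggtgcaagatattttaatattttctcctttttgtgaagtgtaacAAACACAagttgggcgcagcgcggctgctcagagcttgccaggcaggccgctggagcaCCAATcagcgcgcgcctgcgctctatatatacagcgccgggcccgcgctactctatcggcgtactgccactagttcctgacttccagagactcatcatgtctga
H2ac10 promoter, chr13:23533625-23533924, plus strand: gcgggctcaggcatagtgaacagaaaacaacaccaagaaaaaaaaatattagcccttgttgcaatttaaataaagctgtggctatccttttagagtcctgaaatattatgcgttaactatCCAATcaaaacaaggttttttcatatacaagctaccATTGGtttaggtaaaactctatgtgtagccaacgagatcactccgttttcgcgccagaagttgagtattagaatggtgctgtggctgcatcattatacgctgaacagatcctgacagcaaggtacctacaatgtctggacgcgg
H3c3 promoter, chr13:23745472-23745771, minus strand: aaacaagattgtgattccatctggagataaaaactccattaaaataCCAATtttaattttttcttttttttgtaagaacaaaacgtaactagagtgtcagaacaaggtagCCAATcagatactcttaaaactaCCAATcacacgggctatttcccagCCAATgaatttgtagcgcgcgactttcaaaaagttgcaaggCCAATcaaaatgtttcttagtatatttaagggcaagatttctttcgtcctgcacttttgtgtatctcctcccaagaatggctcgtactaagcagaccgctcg
H3c10 promoter, chr13:21717378-21717677, plus strand: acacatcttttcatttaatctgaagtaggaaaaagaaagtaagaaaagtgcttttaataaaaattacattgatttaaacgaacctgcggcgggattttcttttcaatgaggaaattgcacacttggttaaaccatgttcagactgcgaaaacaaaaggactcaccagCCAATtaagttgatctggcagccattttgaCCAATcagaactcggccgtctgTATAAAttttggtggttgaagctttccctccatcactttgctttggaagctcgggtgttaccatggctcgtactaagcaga
H4c9 promoter, chr13:22041313-22041612, minus strand: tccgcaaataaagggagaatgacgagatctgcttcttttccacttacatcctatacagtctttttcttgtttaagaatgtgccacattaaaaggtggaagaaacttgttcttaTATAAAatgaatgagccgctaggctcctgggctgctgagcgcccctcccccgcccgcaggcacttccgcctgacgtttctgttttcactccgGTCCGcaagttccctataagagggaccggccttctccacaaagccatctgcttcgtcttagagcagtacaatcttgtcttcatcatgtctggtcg

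The capitals mark 5 motifs searched on both strands: CCAAT (the CCAAT box), TATAAA (the TATA box), AAACACA (an element of H1 promoters), GTCCG (the core of an element of H4 promoters) and ATTTGCAT (the octamer of H2B promoters). A capital run that reads ATTGG is CCAAT on the other strand, and no matches overlap in these 5 windows. H3c3 holds 5 CCAAT matches, H2ac10 and H3c10 hold 2 each, and H1f2 holds 1 beside its AAACACA. H4c9 holds no CCAAT, and its GTCCG starts 45 bases before the gene start. The TATAAA of H4c9 starts 137 bases before the gene start, and that of H3c10 starts 31 bases before. Only exact matches were marked, so similar strings stay in small letters.

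Across the family the elements were spread unevenly over the classes. RefSeq had windows for 51 of the 57 genes, 52 windows in all, against 32851 windows of all genes. CCAAT was present in every H1, H2A, H2B and H3 window and in 3 of 12 H4 windows, against 37.4% of all windows. GTCCG was present in all 12 H4 windows, 6 of 13 H2A windows, 5 of 14 H2B windows, 12.5% of H3 windows and 0 of 5 H1 windows, against 23.4% of all windows. AAACACA was in 4 of 5 H1 windows, 1 H2A window, 1 H2B window and no H3 or H4 window, against 7.18% of all windows. The octamer was in 5 of 13 H2A and 5 of 14 H2B windows, against 1.735% of all windows, and TATAAA was in 30 of the 52, against 13.6%. Several H2A and H2B genes face each other across a shared window, in 7 such pairs. A match is a string of letters and not a measured binding site.

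Depth and identity were read before the histone values. Libraries held between 35708879 and 38395131 counts when labelled KO and between 38099488 and 45232055 when labelled WT. Chaf1b had 16.3, 14.9 and 13.5 CPM (counts scaled to a common library size) in libraries labelled KO, against 13.2, 11.4 and 11.5 CPM in those labelled WT, and so was not lower under the KO label. Its log2 fold change of 0.31 ± 0.11 (SE) had a p of 0.130 after Benjamini-Hochberg adjustment of edgeR's quasi-likelihood p-values, and was past the threshold only without WT replicate 1 (0.38, adjusted p = 0.0138). The counts sum all exons and the deleted part is not given in the sources used here, so this value cannot check the genotype, and every direction rests on the labels. The Th17 markers summed to 434 to 450 CPM in libraries labelled KO and 581 to 768 CPM in those labelled WT, with Cd4 and Cd3e counted in all 6. Of the 9 markers, 5 were called lower by edgeR and 0 higher, against 2.47% and 3.92% of all genes. No estimate was above 0, the median log2 fold change was -0.62, and 8 lay apart with the libraries labelled KO lower. Replicates differed most in the WT group: without WT replicate 1, 2961 genes were called, against 938 of 14681 with all libraries.

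All 57 histone genes together made up only 0.00316% to 0.00351% of counts in libraries labelled KO and 0.00301% to 0.00353% in those labelled WT. This came to 1175 to 1327 counts per library labelled KO and 1157 to 1426 per library labelled WT. The library kit is given but not whether RNA with a poly(A) tail was selected. Of 20 RNAs listed as having no such tail, 13 were found in the table and 9 of those were at 0 in every library. What share of each histone transcript pool was captured is not known from these counts, so a level here is the level of what was captured. Malat1, the only 1 of the 13 with enough counts to test, fell by 0.58 on the log2 scale (SE 0.11, adjusted p = 0.0133 in edgeR's test). It had 70.3, 76.0 and 68.2 CPM in libraries labelled KO, against 126, 107 and 88.9 CPM in those labelled WT, so the groups did not overlap. Its part in the histone values was not tested.

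The H3 and H4 sums were about 1.5 times higher in the libraries labelled KO. The 10 H3 genes summed to 7.83, 6.95 and 6.03 CPM in libraries labelled KO, against 4.83, 4.72 and 4.15 CPM in those labelled WT, a ratio of 1.52. The 13 H4 genes summed to 7.78, 7.89 and 7.42 CPM in libraries labelled KO, against 5.24, 4.53 and 5.87 CPM in those labelled WT, a ratio of 1.48. In both classes all libraries labelled KO lay above all labelled WT, and this held without the gene with most CPM in each class. Without H3c3 the H3 sum was 3.66 ± 0.157 CPM in libraries labelled KO and 2.30 ± 0.210 CPM in those labelled WT. Without H4c9 the H4 sum was 3.31 ± 0.513 CPM in libraries labelled KO and 2.25 ± 0.446 CPM in those labelled WT (mean ± SD, n = 3 each). There the lowest library labelled KO (2.72 CPM) lay just above the highest labelled WT (2.59 CPM). Within that sum, 8 H4 genes with too few counts to test held 1.43 CPM on average in libraries labelled KO and 0.622 CPM in those labelled WT. Leaving out any 1 library kept the log2 ratio between 0.51 and 0.69 for H3 and between 0.47 and 0.65 for H4. These sums use every member, tested or not, and carry no p-value. The groups also did not overlap in 26.8% of all single genes tested. In bulk RNA, a change in the number of cells of a type and a change in RNA per cell cannot be told apart.

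The other classes went differently. The 5 H1 genes summed to 10.8, 9.20 and 9.37 CPM in libraries labelled KO, against 15.2, 13.1 and 11.1 CPM in those labelled WT, a ratio of 0.745 with every library labelled KO below every one labelled WT. That gap was H1f2: without it the H1 sum was 1.34 ± 0.340 CPM in libraries labelled KO and 1.44 ± 0.193 CPM in those labelled WT (n = 3 each), and the groups overlapped. The H2A sum was 2.31 ± 0.614 CPM in libraries labelled KO and 1.83 ± 0.478 CPM in those labelled WT (n = 3 each), also with overlap. The H2B sum was 7.40 ± 0.411 CPM in libraries labelled KO and 6.86 ± 0.523 CPM in those labelled WT (n = 3 each), with overlap, but without H2bc4 it was 5.17 ± 0.238 CPM in libraries labelled KO and 4.25 ± 0.439 CPM in those labelled WT, and the groups were apart.

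**Figure D1:**
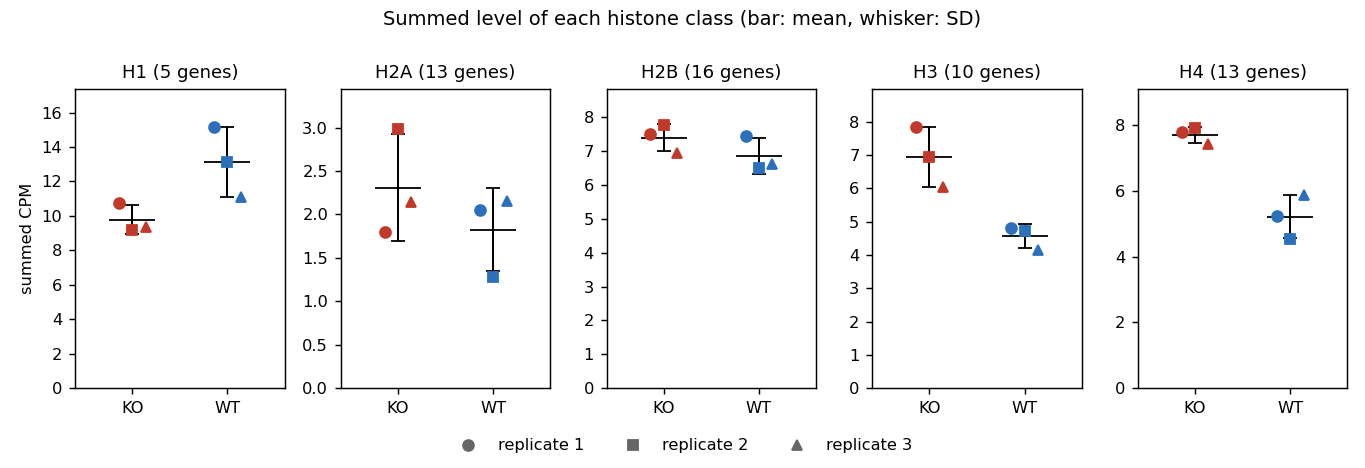
Summed level of each histone class in CPM (y axis, linear from 0) for the 3 libraries labelled KO and the 3 labelled WT (x axis). Points are libraries, bars are means and whiskers are SD. H3 and H4 libraries labelled KO sit above all those labelled WT, H1 libraries labelled KO sit below, and H2A and H2B overlap.

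H1 lay lower where H3 and H4 lay higher, and the total ratio lay between theirs. All 57 genes together came to 35.7, 34.8 and 31.9 CPM in libraries labelled KO, against 34.8, 30.2 and 29.9 CPM in those labelled WT, a ratio of 1.08 with overlap. Without H1f2 the total was 25.7 ± 1.91 CPM in libraries labelled KO and 19.9 ± 1.34 CPM in those labelled WT (n = 3 each), and the groups were apart. H1f2, which lay lower under the KO label, was left out after its values were seen. The class shares of a library add up to the whole, so they do not move independently. H1 held 28.7% ± 1.96 of histone CPM in libraries labelled KO and 41.4% ± 3.79 in those labelled WT. The share of H3 was 20.3% ± 1.56 in libraries labelled KO and 14.5% ± 1.01 in those labelled WT, and that of H4 was 22.6% ± 0.721 in libraries labelled KO and 16.6% ± 2.64 in those labelled WT (SD, n = 3 each). The share of H2B was 21.7% ± 0.654 in libraries labelled KO and 21.7% ± 0.415 in those labelled WT.

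Gene by gene, 23 of the 57 members had enough counts to test (3 H1, 3 H2A, 7 H2B, 5 H3 and 5 H4), and 0 passed the adjusted threshold of 0.05 that edgeR's test gave over 14681 genes. Of all genes tested, 6.39% passed. At an unadjusted p under 0.05 there were 5 members, 4 higher and 1 lower, against 21.1% of all genes (10.9% higher and 10.2% lower). DESeq2's Wald test called 3 (H3c10 and H4c9 higher, H1f2 lower), against 9.58% of all genes, and limma-voom called 0, against 5.92%. The groups did not overlap in 5 members (4 higher, 1 lower), against 26.8% of all genes (14.4% higher and 12.4% lower). Among genes in the CPM range of the tested members, 4.01% were called and 22.2% did not overlap. Counts of 5 among 23 are thus close to the background. The fitted change was above 0 in 17 members and below 0 in 6, where 48.7% of all genes tested were above 0. The median log2 fold change was 0.25, against -0.0064 over all genes tested and -0.045 over genes in the CPM range of the tested members. The median of the members was 0.48 without WT replicate 2, 0.47 without KO replicate 3, 0.40 without WT replicate 3 and 0.39 with limma-voom. The filter asked for about 0.261 CPM in 3 libraries, and 14 members met it in all 6. Another 5 met it in more libraries labelled KO than labelled WT, and 0 the other way round. All 5 had estimates above 0 (0.45 to 1.51), so the split of 17 and 6 and the median may partly reflect how members entered the test. These counts support nothing about the other 34.

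**Figure D2:**
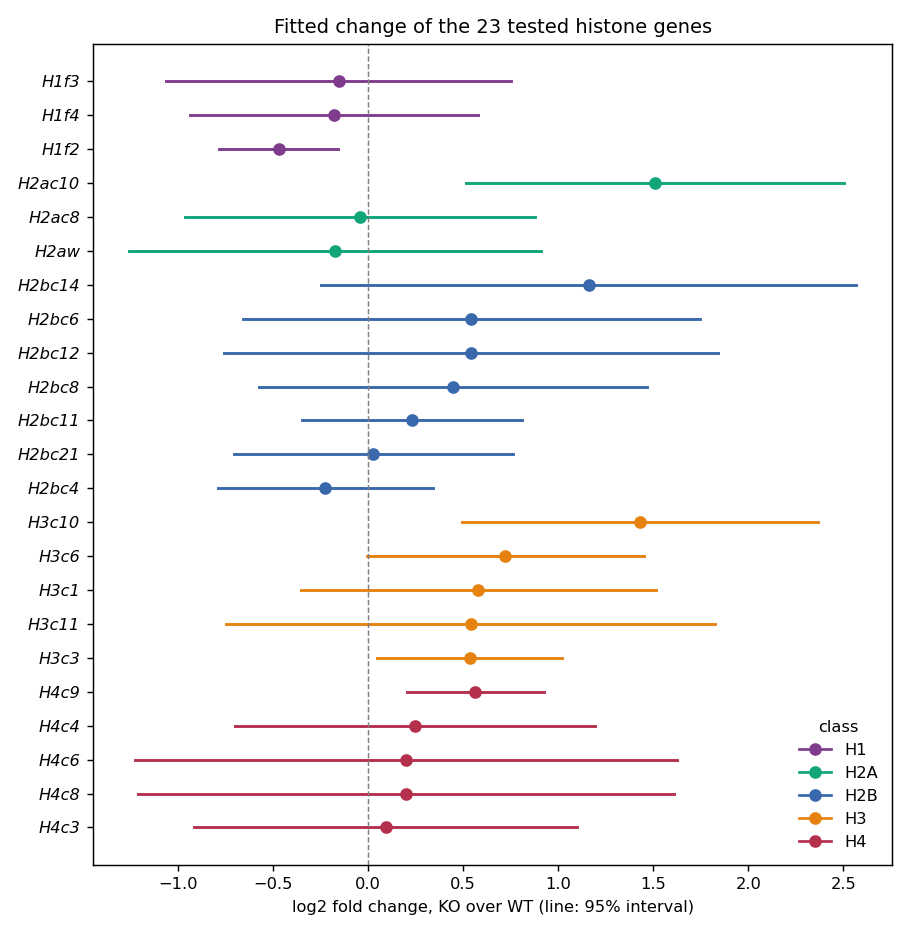
Fitted log2 fold change of the 23 tested histone genes, KO over WT (x axis), by gene and coloured by class (y axis). Points are edgeR estimates and lines are 95% intervals. All 5 H3 and all 5 H4 estimates lie above 0 and all 3 H1 estimates lie below, most with intervals that cross 0.

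Of the H4 genes, H4c9 (Hist1h4i, ENSMUSG00000060639.6) was the one with the most counts. It had 4.22, 4.25 and 4.70 CPM in libraries labelled KO, against 2.83, 2.79 and 3.27 CPM in those labelled WT. Every library labelled KO lay above every one labelled WT. Its estimated log2 fold change was 0.56 ± 0.16 (SE; 95% interval 0.20 to 0.92; adjusted p = 0.0688, edgeR). H4c4 (Hist1h4d) had 1.28, 0.524 and 0.516 CPM in libraries labelled KO, against 0.536, 0.704 and 0.703 CPM in those labelled WT. Only KO replicate 1 was high, and without it the estimate of 0.25 became -0.32. The estimates of the other tested H4 genes, H4c3, H4c6 and H4c8, ran from 0.09 to 0.20, and their groups overlapped.

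The 8 H4 genes below the filter lay apart as a sum. Together they summed to 1.17, 1.97 and 1.17 CPM in libraries labelled KO, against 0.634, 0.573 and 0.659 CPM in those labelled WT, from 159 counts in libraries labelled KO and 78 in those labelled WT. All libraries labelled KO lay above all labelled WT. The untested genes of every other class overlapped as a sum. The 5 untested H3 genes summed to 0.662 ± 0.0837 CPM in libraries labelled KO and 0.645 ± 0.0720 CPM in those labelled WT (mean ± SD). All 34 untested members together had a ratio of 1.34, also with overlap. Of the 8 H4 genes, H4c14 (Hist2h4) had 10, 17 and 8 counts in libraries labelled KO and 8, 7 and 10 in those labelled WT. H4c17 (Hist1h4m) had 6, 30 and 2 counts in libraries labelled KO and 12, 0 and 10 in those labelled WT, so KO replicate 2 alone held much of its count. All H4 genes encode nearly the same protein and similar mRNA, and reads that match several copies were not counted in the 5 libraries whose commands show their options.

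H3c10 (Hist1h3h, ENSMUSG00000101355.2) had the second highest estimate of the 23 tested members. It had 1.08, 0.996 and 0.869 CPM in libraries labelled KO, against 0.585, 0.287 and 0.220 CPM in those labelled WT, with no overlap. Its estimated log2 fold change was 1.43 ± 0.43 (SE; 95% interval 0.49 to 2.37; adjusted p = 0.0756, edgeR). Without WT replicate 1, its highest WT library, the estimate was 1.95 and the adjusted p 0.00671. H3c6 (Hist1h3e) had 0.968, 0.865 and 0.978 CPM in libraries labelled KO, against 0.585, 0.495 and 0.615 CPM in those labelled WT, again with no overlap (log2 fold change 0.72 ± 0.33, adjusted p = 0.239 in edgeR's test). H3c3 (Hist1h3c, ENSMUSG00000069310.5) had 4.02, 3.30 and 2.53 CPM in libraries labelled KO, against 2.29, 2.58 and 1.93 CPM in those labelled WT. WT replicate 2 lay just above KO replicate 3, so its groups overlapped (0.53 ± 0.22, adjusted p = 0.189). H3c1 and H3c11, the other tested H3 genes, had estimates of 0.58 and 0.54 with overlapping groups. Among untested H3 genes, H3c7 (Hist1h3f) had 6, 12 and 15 counts in libraries labelled KO and 4, 8 and 8 in those labelled WT.

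**Figure D3:**
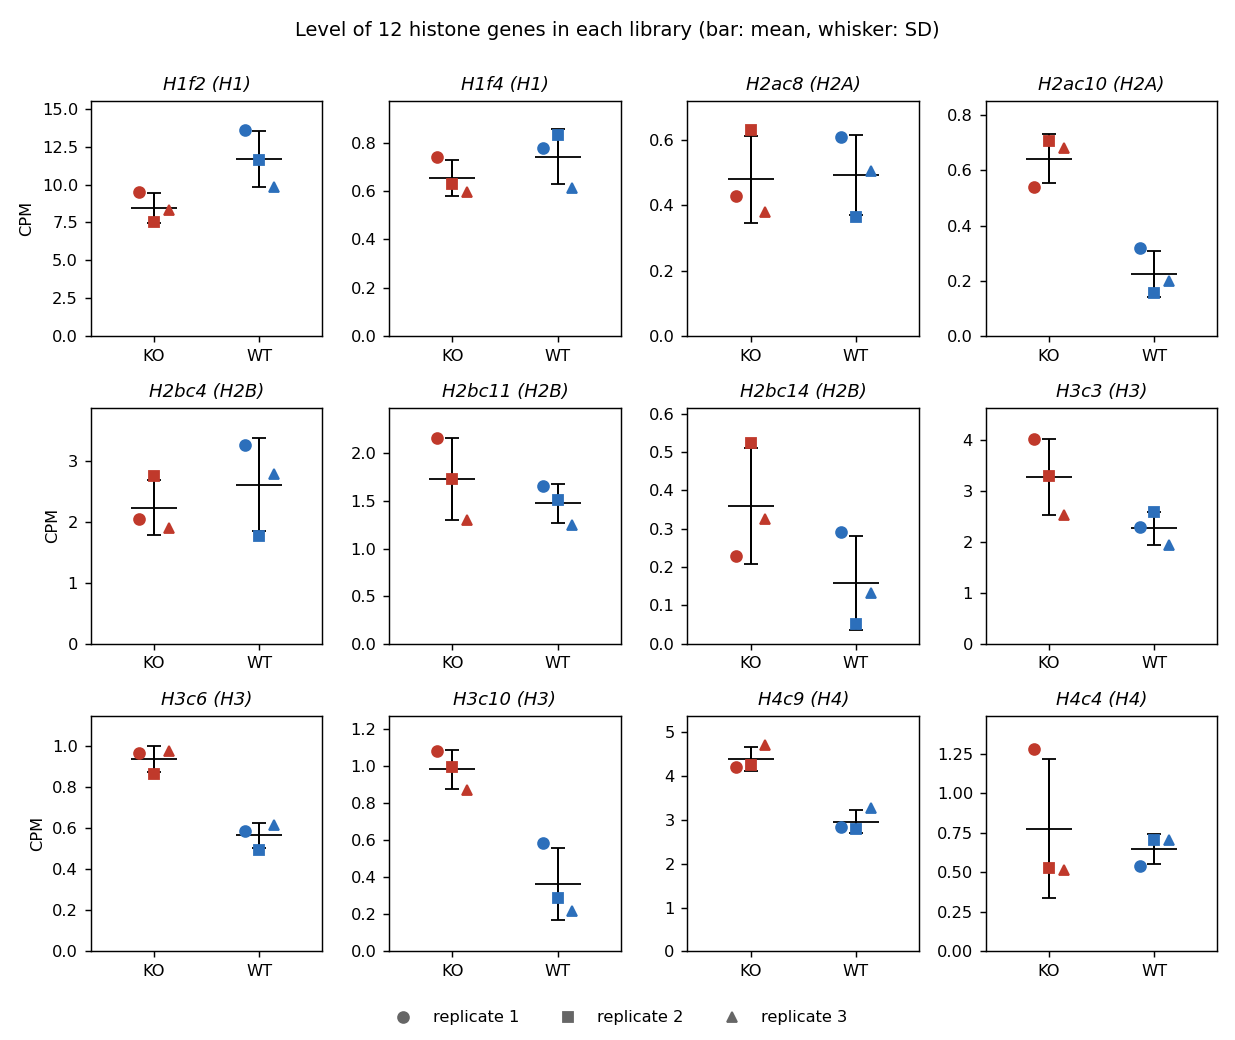
Level of 12 histone genes in CPM (y axes, linear from 0) in the 3 libraries labelled KO and the 3 labelled WT (x axis). Points are libraries, bars are means and whiskers are SD. H2ac10, H3c6, H3c10 and H4c9 are apart with the libraries labelled KO higher, H1f2 is apart with them lower, and the others overlap.

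H1f2 (Hist1h1c, ENSMUSG00000036181.3) encodes a linker histone that binds DNA where it enters and leaves the nucleosome, and it held the most counts of all members. It had 9.49, 7.50 and 8.34 CPM in libraries labelled KO, against 13.6, 11.7 and 9.84 CPM in those labelled WT. Every library labelled KO lay below every one labelled WT. Its estimated log2 fold change was -0.47 ± 0.14 (SE; 95% interval -0.78 to -0.16; adjusted p = 0.0785, edgeR). Without WT replicate 3, its lowest WT library, the estimate was -0.58 and the adjusted p 0.0244. H1f4 (Hist1h1e) had 0.741, 0.629 and 0.598 CPM in libraries labelled KO, against 0.780, 0.834 and 0.615 CPM in those labelled WT. These groups overlapped (-0.18 ± 0.35, adjusted p = 0.823 in edgeR's test), as did those of H1f3, with an estimate of -0.15.

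H1f2 is among the histone genes whose human counterparts have been reported to make some transcripts with a poly(A) tail. The 4 listed (H1f2, H2ac6, H2bc4 and H2bc21) summed to 12.3, 10.98 and 11.7 CPM in libraries labelled KO, against 17.9, 14.4 and 13.6 CPM in those labelled WT, with no overlap. H1f2 made up most of both sums. H2bc4 (Hist1h2bc) had 2.05, 2.75 and 1.90 CPM in libraries labelled KO, against 3.27, 1.77 and 2.79 CPM in those labelled WT, and its groups overlapped (-0.22 ± 0.26, adjusted p = 0.682 in edgeR's test). H2bc21 had an estimate of 0.03, and H2ac6 had 9 counts in all 6 libraries together.

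In the H2A class, H2ac10 (Hist1h2af, ENSMUSG00000061991.3) had the highest estimate of the 23 tested members. It had 0.541, 0.708 and 0.679 CPM in libraries labelled KO, against 0.317, 0.156 and 0.198 CPM in those labelled WT. The groups did not overlap, and the counts behind them were 19, 27 and 25 in libraries labelled KO and 13, 6 and 9 in those labelled WT. Its estimated log2 fold change was 1.51 ± 0.45 (SE; 95% interval 0.52 to 2.50; adjusted p = 0.0763, edgeR). Without WT replicate 1 it was 1.84 with an adjusted p of 0.0299. H2ac10 met the count filter in 3 libraries labelled KO and 1 labelled WT, so it entered the test through the group where it was high. H2ac8 (Hist1h2ae), which shares its promoter window with H2bc8, had 0.427, 0.629 and 0.380 CPM in libraries labelled KO, against 0.609, 0.365 and 0.505 CPM in those labelled WT. Its groups overlapped (-0.04 ± 0.42), as did those of H2aw (-0.17).

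H2B was the class with the most tested genes and none of them lay apart. Of the 7, 6 had estimates above 0, with a median log2 fold change of 0.45. The medians of the tested H3 and H4 genes were 0.58 and 0.20. H2bc8, H2bc12 and H2bc14 met the count filter in more libraries labelled KO than labelled WT. H2bc11 (Hist1h2bj) had 2.16, 1.73 and 1.30 CPM in libraries labelled KO, against 1.66, 1.51 and 1.25 CPM in those labelled WT (0.23 ± 0.26, adjusted p = 0.674 in edgeR's test). H2bc14 (Hist1h2bm) had 0.228, 0.524 and 0.326 CPM in libraries labelled KO, against 0.293, 0.0521 and 0.132 CPM in those labelled WT. Its estimate of 1.16 ± 0.64 was the largest of the class, but its groups overlapped and the interval ran from -0.24 to 2.57. The estimates of H2bc6, H2bc8 and H2bc12 ran from 0.45 to 0.54. In the RefSeq table H2bc6 and H2aw each overlap another gene, Gm33387 and Trim17, and counting without strand cannot tell those reads apart.

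Depth limited the precision. For a typical tested member the 95% interval reached 0.94 to either side of the log2 estimate (median). Below the filter, the 34 untested members had between 1 and 60 counts over the 6 libraries, with a median of 23.5. Of those 34, 2 (H4c11 and H4c18) were apart with the libraries labelled KO higher and 1 (H3c4) with them lower; these 3 were named after their values were seen. The share of all tested genes whose groups did not overlap was 26.8%. With no filter on low counts all 57 members were tested, and 2 were called, H1f2 and H3c10, so none of the 34, against 6.01% of all genes. Of counts from 1 to 20, between 65.6% and 67.7% per library were even, as happens when a fragment is counted once for each mate, and the counts would then rest on fewer fragments.

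Histone variants listed as replication-independent did not pass the test in either direction. Of 12 listed, 10 were tested and 0 were called by edgeR, against 6.39% of all genes. An unadjusted p under 0.05 was reached by 3, against 21.1%. The groups lay apart in 1 with the libraries labelled KO higher and in 3 with them lower, against 14.4% and 12.4% of all genes. DESeq2 called 1, against 9.58% of all genes, and limma-voom called 0, against 5.92%. The median log2 fold change was 0.0022. H3f3b, which encodes the H3.3 laid down at any time in the cell cycle, had 630, 608 and 610 CPM in libraries labelled KO, against 565, 618 and 633 CPM in those labelled WT. Its groups overlapped (0.02 ± 0.05), and so did those of H3f3a, the other H3.3 gene (0.02 ± 0.04). H2az1, which encodes H2A.Z, lay apart at 413, 430 and 415 CPM in libraries labelled KO, against 366, 393 and 385 CPM in those labelled WT. Its change of 0.14 ± 0.04 had an adjusted p of 0.104 in edgeR's test, and 0.0402 without WT replicate 1. The other 2 at an unadjusted p under 0.05 were H2aj (-0.24) and Cenpa (-0.13), named after their values were seen, and H2aj was the 1 that DESeq2 called.

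The machinery that makes histone mRNA mostly did not pass the test. Of 27 tested genes of histone pre-mRNA processing and cluster transcription, 1 rose and 0 fell, against 3.92% of all genes called higher and 2.47% called lower, with a median log2 fold change of 0.03. The 1 was Slbp, the stem-loop binding protein, with 61.4, 68.4 and 65.8 CPM in libraries labelled KO, against 48.7, 55.0 and 57.6 CPM in those labelled WT. It rose by 0.28 ± 0.07 on the log2 scale (adjusted p = 0.0470 in edgeR's test) with no overlap, but the call was lost when any KO replicate (adjusted p from 0.125 to 0.234) or WT replicate 2 (0.142) was left out. Npat, the transcription factor of the clusters, had 43.2, 43.8 and 45.2 CPM in libraries labelled KO, against 41.0, 44.1 and 45.7 CPM in those labelled WT (0.02 ± 0.07). Casp8ap2, which works with NPAT, had overlapping groups (0.03 ± 0.11), as had Lsm10 of the U7 particle that cuts the transcripts (0.03 ± 0.09). Lsm11, its partner in that particle, lay apart at 26.4, 26.8 and 24.8 CPM in libraries labelled KO, against 32.8, 30.6 and 28.3 CPM in those labelled WT (-0.23 ± 0.08, adjusted p = 0.119). Of the 27, 8 had an unadjusted p under 0.05, against 21.1% of all genes. The groups lay apart in 6 with the libraries labelled KO higher and in 1 with them lower, against 14.4% and 12.4%. Zfp473 had the largest estimate (0.70 ± 0.30, adjusted p = 0.202 in edgeR's test, groups apart). It was named after its values were seen.

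Genes of DNA replication, the phase in which the histone genes are read, rose widely. Of 48 tested, 29 rose and 0 fell, against 3.92% of all genes called higher and 2.47% called lower. All 48 estimates were above 0, against 48.7% of all genes, and the median log2 fold change was 0.27. The 48 genes summed to 3557, 3504 and 3496 CPM in libraries labelled KO, against 2845, 2863 and 2847 CPM in those labelled WT, with no overlap. Ccne1, which encodes cyclin E, had 40.3, 41.1 and 38.2 CPM in libraries labelled KO, against 30.4, 27.4 and 23.9 CPM in those labelled WT (0.55 ± 0.09, adjusted p = 0.00439 in edgeR's test). E2f1, a transcription factor of S-phase entry, rose by 0.54 ± 0.11, Tyms, which makes thymidylate, by 0.52 ± 0.07, and Gins2, a subunit of the replicative helicase, by 0.48 ± 0.11 (adjusted p = 0.0140, 0.00154 and 0.0253, in that order). The E2f1 call was lost without KO replicate 1 or 3 (adjusted p = 0.0968 and 0.0894), and Gins2 was not called without WT replicate 2 (0.131) or any KO replicate (0.0574 to 0.143). The count of 29 fell to 11, 13 and 11 without KO replicate 1, 2 and 3, and to 14 without WT replicate 2.

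Chaf1a, the largest CAF-1 subunit, had 72.5, 69.7 and 71.8 CPM in libraries labelled KO, against 61.2, 55.2 and 55.6 CPM in those labelled WT. It rose by 0.32 ± 0.06 (adjusted p = 0.0107 in edgeR's test), a call lost without WT replicate 2 (0.0745) or any KO replicate (0.0554 to 0.0849). Of 33 tested genes of G2 phase and mitosis, 0 were called higher and 1 lower, against 3.92% and 2.47% of all genes. Their median log2 fold change was 0.04. The 1 was Cdc25b, a phosphatase that opens mitosis, which fell by 0.38 on the log2 scale (SE 0.07, adjusted p = 0.00951). It was not called without KO replicate 1 (adjusted p = 0.0731), KO replicate 2 (0.0637) or WT replicate 2 (0.050004), and without WT replicate 1 the list had 7 called genes, where 19.7% of all genes were called. At an unadjusted p under 0.05 the list had 12 genes, against 21.1% of all genes. Estimates were above 0 in 23 of the 33, against 48.7% of all genes. The groups lay apart in 8 with the libraries labelled KO higher and in 3 with them lower, against 14.4% and 12.4%. DESeq2 called 2 of the list, against 9.58% of all genes, and limma-voom 1, against 5.92%.

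**Figure D4:**
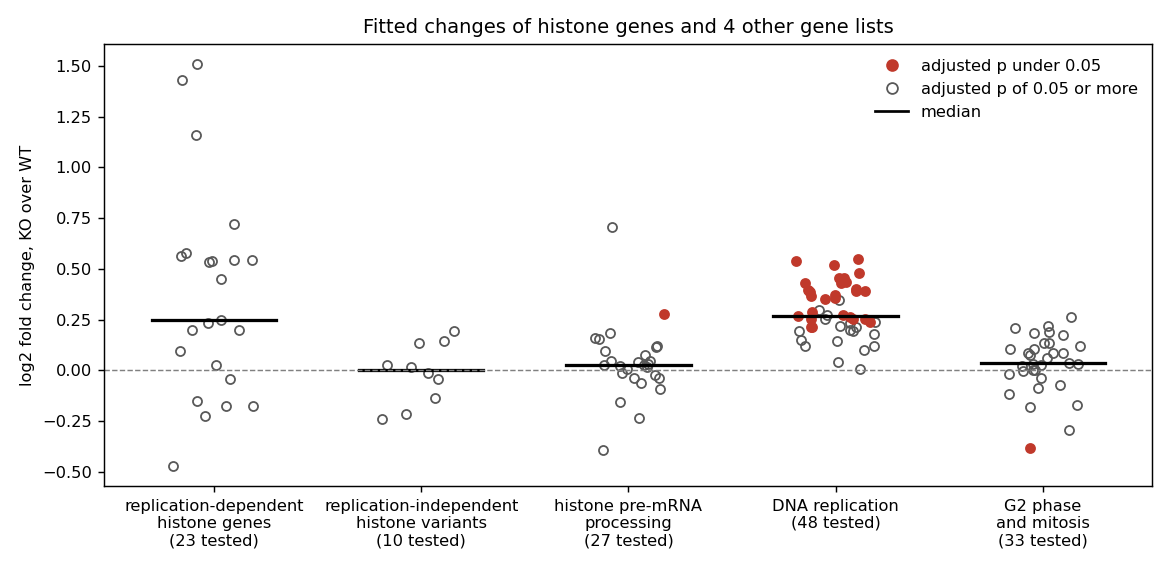
Fitted log2 fold change, KO over WT (y axis), of every tested gene in 5 lists (x axis). Filled points passed an adjusted p of 0.05 in edgeR's test, open points did not, and bars are medians. The DNA replication genes lie above 0 with 29 of 48 filled, while the 23 histone genes have a median of 0.25 with 0 filled, a median that was 0.48 without WT replicate 2.

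Marker sums of other cell types also differed between the labels, with members of a list going both ways. Markers of gamma delta T cells summed to 96.0 to 101 CPM in libraries labelled KO and 51.0 to 63.0 CPM in those labelled WT, with 4 of 6 genes called higher. The other 2 had estimates below 0, Blk with -1.85 (0.0904 CPM on average in libraries labelled KO and 0.334 CPM in those labelled WT, groups apart) and Sox13 with -0.38 (groups overlapping). Markers of NK and innate lymphoid cells summed to 196 to 216 CPM in libraries labelled KO and 94.2 to 125 CPM in those labelled WT, nearly all from Nkg7, with Ncr1, Klrb1c and Klra8 at 0 in every library. The other tested marker of that list, Klre1, lay apart in the other direction (-1.44 ± 0.62, adjusted p = 0.205 in edgeR's test). B cell markers summed to 96.9 to 103 CPM in libraries labelled KO and 68.3 to 81.6 CPM in those labelled WT, most of it Ighm, with Ms4a1 under 0.2 CPM on average. Ighm and Cd79b were called higher, but Ebf1 was called lower (9.85 CPM on average in libraries labelled KO and 15.6 CPM in those labelled WT, -0.66 ± 0.12, adjusted p = 0.0100 in edgeR's test), and Pax5 was at 0 in libraries labelled KO against 0.214 CPM in those labelled WT. Myeloid markers were 2.76 to 2.96 CPM in libraries labelled KO and 1.67 to 2.48 CPM in those labelled WT, with S100a8 and S100a9 at 0. Dendritic cell markers were 25.2 to 27.0 CPM in libraries labelled KO and 21.2 to 23.2 CPM in those labelled WT, with Clec9a and Siglech at 0. Erythroid markers were 2.96 to 7.63 CPM in libraries labelled KO and 2.72 to 3.17 CPM in those labelled WT, with Hba-a2 at 0. One of them, Hbb-bt, was called higher (2.66 CPM on average in libraries labelled KO and 0.425 CPM in those labelled WT, 2.62 ± 0.51, adjusted p = 0.0138 in edgeR's test). The erythroid sums overlapped, as did the CD8 sums (12.4 to 16.6 CPM in libraries labelled KO, 14.1 to 16.0 CPM in those labelled WT). The part of these markers in the histone values was not tested.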

How the data were processed

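RNA was measured in 6 libraries, 3 labelled KO and 3 labelled WT. The remaining 7 of 13 samples, which profile chromatin, were not used here. The authors deposited raw counts summed by gene over exons, for which the file headers name featureCounts 2.0.1 and GENCODE vM33. The options of 5 of the 6 commands set no strand and no counting of multi-mapping reads. The genome build is not given in the sources used here. The deposited column of WT replicate 2 is recorded under the unit other for a reason of form, and like the rest it holds raw counts.

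IDs were matched to symbols for 51948 of 56941 rows. Older Hist names and current names were joined, and promoter sequences were taken by symbol from RefSeq (GRCm38.p6). Groups were compared with edgeR 4.0.16 (R 4.3.3): the default filter on low counts, TMM factors, a robust quasi-likelihood fit and Benjamini-Hochberg adjustment over 14681 genes, threshold 0.05. CPM used TMM library sizes, and the SE was taken from the estimate and the square root of its F statistic. Sums over members carry no test, and sums without the top member of a class were added after seeing the data. DESeq2 1.42.0, limma 3.58.1, other normalizations, other filters, a replicate block and leaving out each library were alternatives. The gene test was checked on simulated counts.

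The members and lists were chosen with earlier results of these data known. Named in full were the 2 members with most CPM per class, the 3 highest and 3 lowest estimates, members at an unadjusted p under 0.05, 3 untested members with most counts, 3 or 4 genes per other list and 10 fixed genes. Some marker genes are not reported here by name.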

Additional observations from a re-analysis of the deposited data

How the results depend on the processing

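No histone gene was called with median-ratio or upper-quartile factors, the stricter filter (5 genes tested) or limma-voom. Higher calls numbered 2 with DESeq2 and 1 with no filter on low counts, and lower calls 1 with each; leaving out a library gave 0 to 2 higher (2 without WT replicate 1, of 25 tested, where 19.7% of all genes were called) and 0 to 1 lower. The median log2 fold change of tested histone genes was 0.39 with limma-voom and 0.39 with no filter, and 0.28 to 0.48 leaving out a library. The summed histone log2 ratio was 0.07 to 0.19. Histone variants called numbered 1 with DESeq2 and 1 with no filter, and 0 to 2 leaving out a library. Processing genes called numbered 0 with limma-voom, 0 with the stricter filter and 2 with no filter, and 0 to 4 leaving out a library. DNA replication calls ran from 11 to 38 and G2 and mitosis calls from 0 to 7 leaving out a library, and the G2 and mitosis list had 2 with DESeq2 and 2 with no filter.

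Leaving out a library turned the sign of 6 named genes: H2ac8 ran from -0.29 to 0.13 (0.03, 0.10 and 0.13 without KO replicate 1, KO replicate 3 and WT replicate 1), H4c4 from -0.32 (without KO replicate 1) to 0.47, Npat from -0.0268 to 0.0505 (-0.0062 without KO replicate 3), Casp8ap2 from -0.0993 to 0.157, Lsm10 from -0.0357 to 0.0920 (-0.0038 without WT replicate 3) and H3f3b from -0.0223 to 0.0586. None of these was called, and the cause was not tested. Slbp had an adjusted p of 0.0533 with limma-voom and 0.0528 with the stricter filter. Same-numbered libraries did not deviate together (correlations -0.0398, -0.0281 and 9e-04). This cannot tell whether libraries of the same number were handled together. With the replicate block 671 genes were called in all, among them 0 histone genes (5 at an unadjusted p under 0.05), 0 variants, 1 processing gene, 21 DNA replication genes and 1 G2 and mitosis gene, and the median histone log2 fold change was 0.32. Low counts limit most histone values, and reads shared by near-identical copies were not measured.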
